A study of Homo sapiens with 4 samples.

Results

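JJ012 is an established human chondrosarcoma cell line, derived from a malignant tumour of cartilage. The comparison described here set 1 library of JJ012 cells treated with 1 mM melatonin for 72 h against 1 library of untreated JJ012 control cells. Both cultures were kept in suspension on a coating that prevents attachment, so detachment from a surface was common to the control and the treated cells and its own effect cannot be read from this pair. The genes described were those that reached at least 1 FPKM (fragments counted per kilobase of exon, scaled to the library total) in either JJ012 library, which held for 15794 of the 61806 genes in the table. The series also holds 1 control and 1 melatonin library (1 mM, 72 h) of the human osteosarcoma line 143B, and these are cited only where a JJ012 value is set beside them. RNA was selected for poly(A) tails and sequenced as paired ends.

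Melatonin is an indoleamine made by the pineal gland and by other tissues. It acts through the G-protein-coupled receptors MTNR1A and MTNR1B, binds the quinone reductase NQO2, and can lower or raise reactive oxygen, depending on its concentration. Cartilage tumour cells build an extracellular matrix of collagens and proteoglycans, and loss of contact with a matrix is a stress that many normal cells do not survive.

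There were no replicates, so no difference below could be set against the spread between cultures, and no test was made. A gene is called higher or lower, and is said to have risen or fallen, when log2((melatonin FPKM + 1)/(control FPKM + 1)) was at least 0.58 or at most -0.58, which corresponds to a factor of 1.5. Adding 1 FPKM makes the change of weakly expressed genes look smaller. For single genes, the ratio of CPM (counts scaled to the library total) is given with its exact (Clopper-Pearson) 95% interval. Such intervals cover counting error only, and they are too narrow even for that where PCR copies of a molecule are counted separately. A level of 3 counts was taken as the floor of a library. In bulk RNA, fewer cells of a kind and less RNA per cell cannot be told apart.

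The JJ012 libraries held 19218343 counts (control) and 16143700 counts (melatonin), and the floor of 3 counts stood at 0.156 and 0.186 CPM. The control had 14477 genes at 1 FPKM or more and the melatonin library 14119. The top 50 genes by counts accounted for 18.6% of the control library and 14.3% of the melatonin library, and the FPKM of all genes summed to 280482 and 231739. In 143B the totals were 15889564 and 17164824 counts.

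After melatonin, 3102 of the 15794 JJ012 genes were higher (19.6%) and 2934 were lower (18.6%), so more than 1 gene in 3 passed the threshold. Of 11534 protein-coding genes, 2054 were higher (17.8%) and 1853 were lower (16.1%). These percentages are the background against which the counts of each gene group below can be read. The median log2 fold change over all genes was 0.01. Higher genes made up 51.4% of the genes past the threshold, and 62.3% after rescaling to TPM, a unit in which the length-scaled values of every library sum to the same total and a filter of 1 TPM admits more genes. The interval of the CPM ratio excluded no change for 2775 of the higher genes and 2663 of the lower genes. Genes just inside the limit of 1 FPKM (1.00 to 1.04 FPKM, 265 genes) had a median log2 fold change of -0.14, and those just outside it (0.95 to 0.99 FPKM, 255 genes) had a median of -0.13. The shares past the threshold differed more, at 17.0% higher and 21.5% lower just inside and 10.6% and 17.3% just outside. A gene near 1 FPKM that entered through 1 library alone could hardly avoid a difference, so counts over groups of weakly expressed genes are descriptions only.

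**Figure D1:**
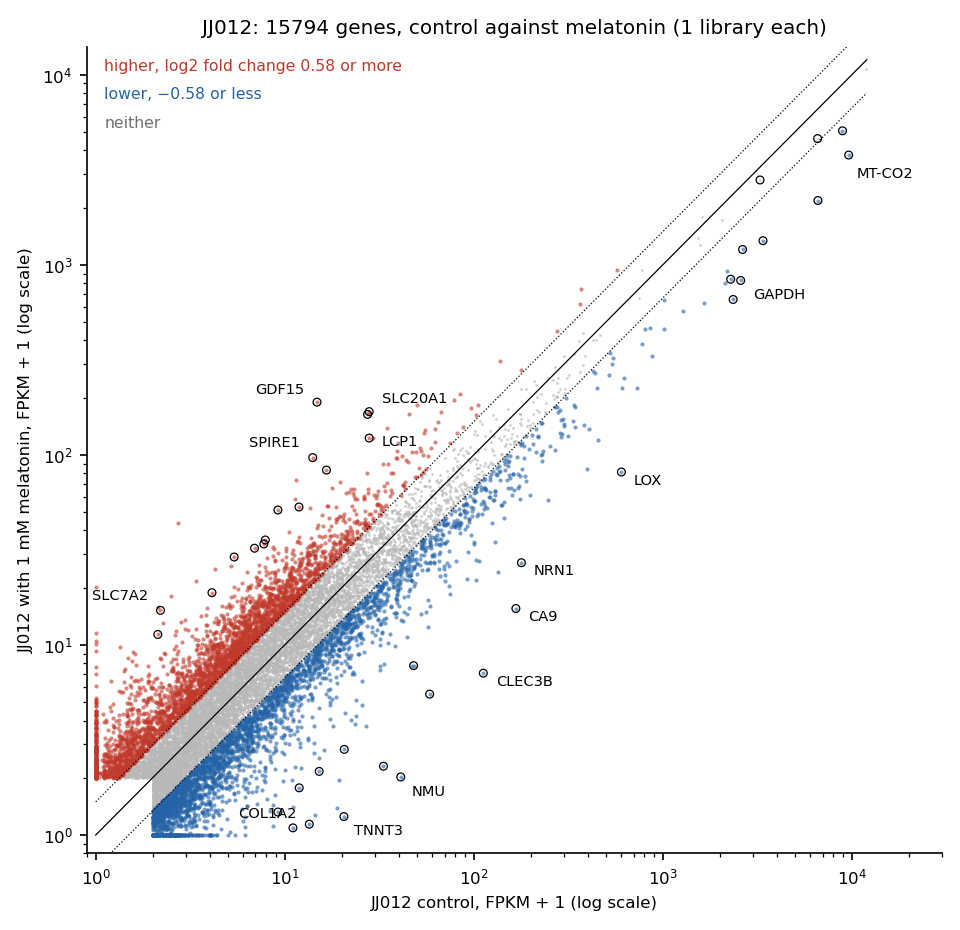
Each point is 1 of 15794 genes, with FPKM + 1 in the JJ012 control on the horizontal log axis and FPKM + 1 with melatonin on the vertical log axis. Red genes rose, blue genes fell, the dotted lines mark a log2 fold change of 0.58 either way, and black circles mark the protein-coding genes with the largest changes and the highest control levels; GDF15 lies far above the diagonal, and LOX, CA9 and NMU lie far below it.

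The label of the line was checked against chondrocyte markers. Of 24 markers, 9 reached 1 FPKM. SOX9, the transcription factor that specifies cartilage, was present at 15.1 FPKM in the control, and COL11A1, a minor cartilage collagen, at 22.9 FPKM. The major cartilage products were absent or nearly so. COL2A1 (type II collagen) had 0 counts in both libraries, ACAN (aggrecan) had 4 and 3 counts, COMP had 4 and 0 counts, and HAPLN1 had 1 and 0 counts. Transcripts of the main secreted proteins of cartilage were thus at or near the floor, so the markers bear out a cartilage origin only in part. Of the 9 markers present, 6 were lower after melatonin and 0 were higher, with a median log2 fold change of -0.73. SOX9 fell from 15.1 to 6.16 FPKM and COL11A1 from 22.9 to 3.24 FPKM, while FMOD (fibromodulin) went from 31.9 to 21.8 FPKM without passing the threshold.

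Markers of other cell types were also read. Of 13 osteoblast markers, 6 reached 1 FPKM, with 2 lower and 0 higher, and the list summed to 110.8 FPKM in the control and 71.7 FPKM with melatonin, above the sums of the chondrocyte list (89.9 and 39.9 FPKM). SPP1 (osteopontin) made up most of this sum, at 79.4 and 64.5 FPKM. RUNX2, a factor of bone and of maturing cartilage, stood at 3.02 and 2.59 FPKM, and the defining markers IBSP and SP7 had 4 and 8 counts in the control and 0 with melatonin. Of 9 epithelial markers, 4 reached 1 FPKM, and their summed level over the whole list was 23.4 FPKM in the control and 15 FPKM with melatonin. KRT19 had 97 counts in the control and 1 with melatonin, KRT18 went from 13.8 to 7.49 FPKM, and the defining markers CDH1 and EPCAM had 1 and 7 counts in the control and 0 and 2 with melatonin. Of 9 leukocyte markers, 2 reached 1 FPKM, and the list summed to 16.5 and 7.04 FPKM. The defining marker PTPRC had 42 and 4 counts, while CD3E, a T-cell receptor subunit, fell from 9.73 to 3.28 FPKM. Of 6 endothelial markers, PECAM1 alone passed, at 1.81 and 0.66 FPKM. Of 7 muscle and fat markers, DES fell from 1.97 to 0.62 FPKM and MYH3 stood at 0.99 and 1.15 FPKM. The levels of these lists moved down together with the matrix genes described below, but the lists are not separate from those genes. The osteoblast list holds COL1A1 and COL1A2, and the chondrocyte list holds COL9A2 and COL11A1, which are also counted among the collagens. The part of the marked cell types in those falls was not tested.

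Among protein-coding genes that reached 5 FPKM, the largest rises were led by a stress cytokine and by transporters. GDF15, a secreted cytokine of the TGF-beta superfamily induced by many forms of cell stress, rose from 13.8 FPKM (554 counts) to 188 FPKM (6348 counts), a 13.6-fold rise in CPM with an interval of 3.64 to 3.90 on the log2 scale. SLC7A2, a cationic amino acid transporter that carries arginine, rose from 1.2 to 14.2 FPKM, an 11.8-fold rise in CPM. SLC7A11, the cystine-glutamate antiporter that feeds glutathione synthesis, rose from 1.13 to 10.35 FPKM. A sodium-phosphate transporter, SLC20A1, went from 27.0 to 168 FPKM. These 3 genes encode membrane proteins for the uptake or exchange of amino acids and phosphate.

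SPIRE1, an actin nucleator, rose from 13.1 to 95.7 FPKM. It overlaps PSMG2 on the opposite strand, and as the strand setting of the counting is not given in the sources used here, reads of overlapping genes cannot be told apart. AGPAT5, an acyltransferase of phospholipid synthesis, rose from 26.4 to 162 FPKM, and the anchoring protein gene PALM2AKAP2 from 8.2 to 50.3 FPKM. HRK, a BH3-only protein that promotes apoptosis, rose from 4.40 to 28.0 FPKM (log2 fold change 2.43). DUSP5, a nuclear phosphatase that switches off ERK, rose from 15.6 to 82.2 FPKM. Others of the 15 largest rises were AKAP13 (a guanine nucleotide exchange factor, 5.92 to 31.3 FPKM), JPH1 (a junctophilin, 3.12 to 17.8 FPKM), BCAT1 (cytosolic branched-chain aminotransferase, 6.89 to 34.7 FPKM), LCP1 (the actin bundler L-plastin, 27.0 to 122 FPKM) and ITPRIP (6.75 to 33.0 FPKM). None of these 15 genes had a log2 fold change above 0.58 in 143B, where their values lay between -0.39 (LCP1) and 0.52 (SLC7A2).

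The largest falls included many secreted and matrix genes. NMU, the neuropeptide neuromedin U, fell from 40.1 FPKM (751 counts) to 1.02 FPKM (16 counts), a 39.4-fold fall in CPM. TNNT3, fast skeletal troponin T, fell from 19.6 FPKM (1021 counts) to 0.25 FPKM (11 counts). CLEC3B (tetranectin), which overlaps EXOSC7 on its own strand, fell from 111 to 6.10 FPKM, and the protease inhibitor gene WFDC5 from 32.3 to 1.30 FPKM. The fibrillar collagens COL1A2 and COL3A1 fell from 12.5 to 0.14 FPKM (2594 to 24 counts) and from 10.05 to 0.09 FPKM (1305 to 10 counts), the latter a 110.0-fold fall in CPM, and COL1A1 fell from 10.9 to 0.77 FPKM. CA9, the hypoxia-induced carbonic anhydrase of the cell surface, fell from 166 to 14.5 FPKM. MMP7 (matrilysin) fell from 57.4 to 4.51 FPKM. LOX, the oxidase that crosslinks collagen and elastin, was among the most abundant transcripts of the control at 603 FPKM (64839 counts) and fell to 80.2 FPKM (7246 counts). Its relative LOXL1 fell from 47.0 to 6.78 FPKM. TMEM45A, PCDH18 (a protocadherin), ACKR1 (an atypical chemokine receptor) and NRN1 (neuritin) completed the list, and NRN1 fell from 178 to 26.1 FPKM. In 143B, CA9 (-1.22), NMU (-1.98), TMEM45A (-0.73) and NRN1 (-0.59) also passed the threshold downwards, CLEC3B passed it upwards at 0.83 (4 and 21 counts), and the other 10 genes did not pass.

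Collagens, the structural fibres and networks of the matrix, fell almost throughout. Of 44 collagen genes, 22 reached 1 FPKM in JJ012, and 20 of these were lower and 0 higher, beside 18.6% lower over all genes. The median log2 fold change was -0.80, with an interval over genes of -1.32 to -0.71. These genes share the same pair of libraries and are not independent, and the interval does not cover the spread between cultures. Fibrillar, network and fibril-associated collagens took part, as did the transmembrane COL17A1, which passed the filter through the control alone. A weakly expressed member that entered in this way could hardly avoid a fall, so the count of lower members is a description only. COL5A1, which nucleates fibrils, fell from 74.2 to 17.5 FPKM, COL4A1 of basement membranes from 12.8 to 6.91 FPKM, COL9A2 of cartilage fibrils from 4.86 to 1.35 FPKM, and the transmembrane COL17A1 from 1.42 to 0.12 FPKM. The genes below the threshold were COL6A1 (107 and 72.9 FPKM) and COL6A3 (204 and 188 FPKM), which with COL6A2 form type VI collagen, and these 3 had the highest levels per length of the family. In 143B, 17 collagen genes passed the filter and none crossed the threshold in either direction.

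Proteoglycans and matricellular proteins moved the same way, with 15 of 26 lower and 1 higher. SPARC, a collagen-binding glycoprotein, fell from 125 to 57.1 FPKM, FN1 (fibronectin) from 800 to 458 FPKM, CSPG4 (the NG2 proteoglycan) from 27.6 to 14.9 FPKM, and the small leucine-rich proteoglycan LUM from 7.15 to 2.34 FPKM. SDC4, a cell-surface heparan sulfate proteoglycan, was the gene that rose, from 17.3 to 36.7 FPKM. Among matrix proteases and their inhibitors, 9 of 18 were lower and 0 higher. Collagenase MMP1 fell from 6.86 to 1.04 FPKM, the membrane-type MMP14 from 194 to 106 FPKM, gelatinase MMP2 from 121 to 72.9 FPKM, and the inhibitors TIMP1 and TIMP4 from 171 to 78.6 and from 140 to 53.5 FPKM. Matrix proteins, the proteases that cut them and the inhibitors of those proteases thus fell alongside each other.

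Of 6 laminin chains, 4 were lower, led by LAMB3 (30.9 to 6.34 FPKM), while LAMC1 stood at 48.4 and 49.3 FPKM. Integrins, the receptors for these proteins, were divided. Of 17, 8 were lower and 3 higher. ITGA10, a collagen-binding subunit of chondrocytes, fell from 24.5 to 5.45 FPKM and ITGA6 from 24.9 to 15.4 FPKM, whereas ITGA3 rose from 104 to 182 FPKM, and the fibronectin receptor chains ITGA5 (215 and 200 FPKM) and ITGB1 (83.9 and 87.5 FPKM) did not pass. All 10 S100 calcium-binding proteins at 1 FPKM or more were lower, with a median of -1.65. S100A4 fell from 395 to 83.7 FPKM, S100A10 from 247 to 57.0 FPKM and S100A6 from 447 to 223 FPKM. Of the HOX genes, the transcription factors of positional identity, 11 of 17 were lower and 0 higher, with examples in HOXC6 (11.3 to 3.21 FPKM) and HOXC10 (68.0 to 43.9 FPKM).

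Genes that mark mesenchymal transition and movement showed falls and 1 prominent rise. VIM, the intermediate filament vimentin, fell from 611 to 224 FPKM and TWIST1 from 47.1 to 24.6 FPKM, while SNAI2 (Slug) rose from 25.2 to 58.0 FPKM, so that 7 of 13 markers were lower and 1 higher. In the list for migration and invasion, 7 of 25 were lower and 2 higher. The urokinase receptor PLAUR (25.7 and 19.8 FPKM) and CD44 (32.0 and 27.3 FPKM) did not pass, and the hepatocyte growth factor receptor MET rose from 31.2 to 52.1 FPKM.

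The hypoxia response list held HIF factors, hydroxylases and genes that HIF factors transcribe by binding a short promoter element. It had more falls than rises, and the rises included those of HIF1A and EPAS1. Of 29 genes, 16 were lower and 5 higher, with a median of -0.73. Next to CA9 and LOX, the collagen hydroxylases P4HA1 (383 to 143 FPKM), P4HA2 (43.7 to 17.1 FPKM), PLOD1 (188 to 72.2 FPKM) and PLOD2 (143 to 45.8 FPKM) fell, as did the mitophagy receptor BNIP3 (332 to 149 FPKM), the oxidoreductase ERO1A (206 to 113 FPKM) and the angiogenic factor VEGFA (65.9 to 39.3 FPKM). The summed level of the list was 3214 FPKM in the control and 1733 FPKM with melatonin. The factors HIF1A (77.8 to 192 FPKM) and EPAS1, which encodes HIF-2 alpha (9.11 to 27.8 FPKM), rose, together with the demethylase KDM3A and the repressors BHLHE40 (80.8 to 129 FPKM) and BHLHE41. NDRG1 (278 and 252 FPKM) and BNIP3L (174 and 163 FPKM) stayed under the threshold. In 143B, 3 of 31 genes of this list were lower and 0 higher.

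The promoters of this list were read for the HIF element, searched as ACGTG or GCGTG on both strands in the 300 bases from 250 before to 50 after each start (RefSeq, GRCh38.p14). Only the first listed start of each gene was read. The element was present in 22 of 26 promoters found for the list (84.6%) and in 48.4% of all 27305 promoters. Among members that passed the filter, it was present in 13 of 14 promoters of lower genes, in 5 of 5 of higher genes and in 3 of 5 of the others, so the letters were common to genes that moved in opposite directions. The higher genes included the factors HIF1A and EPAS1 themselves. The strongest falls and 2 of the rises are shown, with matches in capitals, where the pair of overlapping matches in BHLHE40 is 1 palindrome read on both strands. CA9 (chr9:35673678-35673977, plus strand) held 1 match at -18 from the start and LOX (chr5:122078210-122078509, minus strand) held 4. BHLHE40 (chr3:4979187-4979486, plus strand) held 4 and EPAS1 (chr2:46297157-46297456, plus strand) held 1.
CA9: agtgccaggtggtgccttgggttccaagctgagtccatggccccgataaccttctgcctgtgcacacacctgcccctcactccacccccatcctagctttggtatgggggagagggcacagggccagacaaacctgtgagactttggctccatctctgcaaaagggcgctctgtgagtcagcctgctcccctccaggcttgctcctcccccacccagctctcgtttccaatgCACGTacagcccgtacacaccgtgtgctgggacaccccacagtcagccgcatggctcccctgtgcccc
LOX: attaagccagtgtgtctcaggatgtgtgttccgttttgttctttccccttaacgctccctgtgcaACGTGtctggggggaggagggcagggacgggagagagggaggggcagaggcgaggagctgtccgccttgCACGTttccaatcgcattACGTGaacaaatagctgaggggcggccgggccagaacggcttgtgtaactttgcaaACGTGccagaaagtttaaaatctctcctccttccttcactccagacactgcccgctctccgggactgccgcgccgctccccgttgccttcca
BHLHE40: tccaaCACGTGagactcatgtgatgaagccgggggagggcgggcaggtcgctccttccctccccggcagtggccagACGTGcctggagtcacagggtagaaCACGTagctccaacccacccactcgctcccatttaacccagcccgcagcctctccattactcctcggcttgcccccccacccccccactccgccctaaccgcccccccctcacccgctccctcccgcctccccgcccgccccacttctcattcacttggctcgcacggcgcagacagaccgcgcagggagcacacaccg
EPAS1: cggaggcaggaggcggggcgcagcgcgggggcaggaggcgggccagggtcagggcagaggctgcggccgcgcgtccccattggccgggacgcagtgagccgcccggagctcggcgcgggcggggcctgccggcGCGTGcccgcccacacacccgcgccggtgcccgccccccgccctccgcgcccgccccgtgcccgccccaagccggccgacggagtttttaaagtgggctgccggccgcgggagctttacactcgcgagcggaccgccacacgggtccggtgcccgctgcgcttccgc

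Glycolysis, part of which is also under HIF control, split by step. Most enzymes that carry triose phosphates to lactate were lower, and a glucose transporter and a hexokinase were higher. GAPDH, with the 8th highest FPKM among protein-coding genes of the control, fell from 2582 to 826 FPKM (118895 to 31957 counts). TPI1 fell from 315 to 125 FPKM, PGK1 from 626 to 254 FPKM, PGAM1 from 171 to 65.9 FPKM, ENO1 from 1013 to 460 FPKM, PKM from 279 to 166 FPKM and LDHA from 520 to 263 FPKM. The glucose transporter SLC2A3 rose from 38.7 to 114 FPKM, hexokinase HK2 from 83.2 to 208 FPKM and the activator of phosphofructokinase PFKFB3 from 17.8 to 45.0 FPKM, while SLC2A1 stood at 76.9 and 105 FPKM. In all, 11 of 26 genes were lower and 5 higher, and their summed level went from 6567 to 3215 FPKM. In 143B the sums were 6859 and 7069 FPKM.

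**Figure D2:**
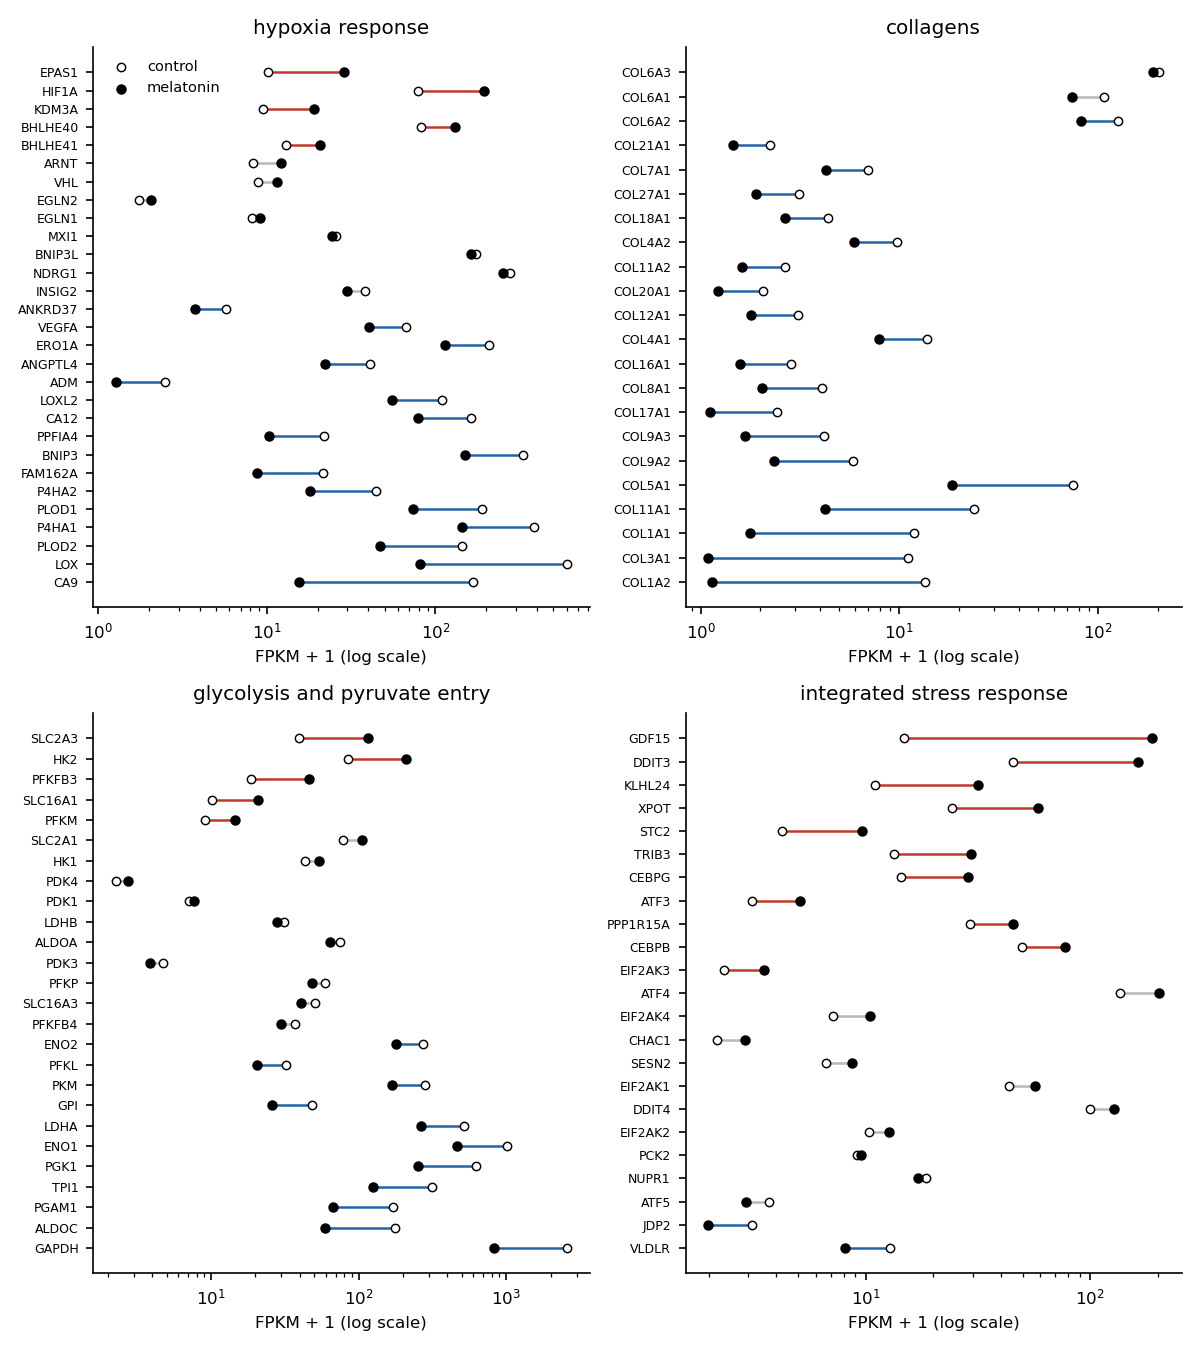
FPKM + 1 (log axis) of each member that passed the filter in 4 lists, with open circles for the JJ012 control and filled circles for melatonin, joined in red where the gene rose, blue where it fell and grey otherwise. All 22 collagens have the filled circle to the left, and the hypoxia and glycolysis lists hold both directions, with the highest glycolytic gene, GAPDH, moving from 2582 to 826 FPKM.

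Most mRNAs of the mitochondrial genome were lower, and most nuclear subunits of the respiratory chain did not pass the threshold. Of 13 mitochondrially encoded mRNAs, 10 were lower and 0 higher, with a median of -1.16. MT-CO2 fell from 9622 to 3780 FPKM, MT-CO3 from 6617 to 2178 FPKM and MT-CYB from 1661 to 625 FPKM, whereas MT-ND5 (1528 and 1391 FPKM) and MT-ND4L (778 and 938 FPKM) did not pass. Together the 13 mRNAs stood at 47900 FPKM in the control and 23740 FPKM with melatonin. In 143B, 12 of the 13 were higher and 0 lower, with a median of 0.77. The difference between the lines was not tested. Of 76 nuclear subunits, 20 were lower (26.3%, beside 18.6% over all genes) and 1 higher, with a median of -0.44. With TPM 10 were lower, and 23 relative to its upward shift of the median gene, described below. Examples of lower subunits are NDUFB7 (71.1 to 26.1 FPKM) and NDUFA1 (212 to 102 FPKM) of complex I and COX6B1 (112 to 66.1 FPKM) of complex IV. COX7A1 was the subunit past the threshold upwards, at 0.09 and 1.06 FPKM, on 1 and 10 counts. Enzymes of the TCA cycle had a median of 0.13, with rises in citrate synthase CS (14.8 to 30.02 FPKM), IDH3A (2.97 to 8.17 FPKM) and OGDH (16.5 to 28.4 FPKM) and a fall in IDH2 (19.2 to 11.7 FPKM).

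Protein synthesis and turnover moved modestly. Cytosolic ribosomal protein genes had a median of -0.39, with 12 of 80 lower and 0 higher, led by RPS26 (47.5 to 24.5 FPKM). Proteasome subunits had a median of -0.38, with 8 of 36 lower and 0 higher, led by PSMB8 and PSMB3 (73.4 to 38.3 FPKM). Both shares lay near the 18.6% of all genes that were lower. With TPM, 1 of the 80 ribosomal protein genes was lower and 1 higher, and 3 of the 36 proteasome subunits were lower and 1 higher. TPM moved the median gene upwards by 0.26 on the log2 scale. Relative to that shift, 12 ribosomal protein genes and 10 proteasome subunits were lower and 0 of either list higher. Mitochondrial ribosomal proteins had 9 of 77 lower and 3 higher with a median of -0.11, and this median changed sign to 0.15 when values were rescaled to TPM and to 0.03 when the trend over exonic length was removed. Of 63 translation factors, 4 were higher and 4 lower.

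The integrated stress response, in which phosphorylation of eIF2 alpha by stress kinases favours translation of ATF4 and induction of its targets, had more higher than lower genes in JJ012. Of 23 genes, 11 were higher and 2 lower, beside 19.6% and 18.6% over all genes, and the median was 0.577. Next to GDF15, the pro-apoptotic factor DDIT3 (CHOP) rose from 44.2 to 162 FPKM (1111 to 3425 counts). DDIT3 overlaps MARS1 and MBD6 on the opposite strand. The pseudokinase TRIB3 rose from 12.4 to 28.6 FPKM, the tRNA exporter XPOT from 23.2 to 57.4 FPKM, CEBPG from 13.4 to 27.7 FPKM, KLHL24 from 10.02 to 30.7 FPKM and PPP1R15A (GADD34), which reverses the phosphorylation of eIF2 alpha, from 28.2 to 44.6 FPKM. ATF4 itself went from 135 to 203 FPKM, which put its log2 fold change (0.577) just under the threshold, with an interval of the CPM ratio of 0.53 to 0.63. Of the kinases, EIF2AK3 (PERK) rose from 1.34 to 2.52 FPKM, and EIF2AK4 (GCN2), EIF2AK1 and EIF2AK2 did not pass. VLDLR and JDP2 fell. The summed level went from 543 to 1083 FPKM. In 143B, 2 of 21 genes were higher and 3 lower, with a median of -0.06.

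The ATF4 element, searched as TGATGNAA on both strands in the same windows, was present in 4 of 23 promoters of this list (17.4%) and in 3.67% of all promoters. It was present in 1 of 11 promoters of higher genes (ATF3), in 0 of 2 of lower genes and in 1 of 8 of the others (CHAC1). The remaining 2 belonged to ASNS (0.14 and 0.76 FPKM) and FGF21, which were below 1 FPKM. ATF3, a stress-induced repressor, rose from 2.13 to 4.11 FPKM. Its promoter at the start that was read (chr1:212565157-212565456, plus strand) is shown. Of the promoters read for higher genes of this list, it alone held a match, which is in capitals. Other starts of these genes were not read.
ATF3: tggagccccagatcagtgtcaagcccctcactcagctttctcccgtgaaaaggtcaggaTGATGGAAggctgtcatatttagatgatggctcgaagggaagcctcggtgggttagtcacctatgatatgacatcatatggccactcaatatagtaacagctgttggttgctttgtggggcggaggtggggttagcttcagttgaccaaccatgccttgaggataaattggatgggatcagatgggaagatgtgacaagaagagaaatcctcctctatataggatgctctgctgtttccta

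Amino acid transporters had mostly higher calls, and the enzymes that charge tRNAs had a share of higher calls near that of all genes. Of 11 amino acid transporters outside the glutamine group, 7 were higher and 0 lower, with a median of 0.87. SLC3A2, the heavy chain that pairs with the light chains SLC7A5 and SLC7A11, rose from 10.6 to 33.9 FPKM, and the arginine transporter SLC7A1 from 4.12 to 14.7 FPKM. Of 35 aminoacyl-tRNA synthetases, 8 were higher (22.9%, beside 19.6% over all genes) and 0 lower. The cytosolic YARS1 (8.90 to 23.6 FPKM), AARS1 (21.7 to 52.7 FPKM) and GARS1 (12.8 to 25.3 FPKM) and the mitochondrial MARS2 (1.44 to 5.14 FPKM) were among them. The branch of the unfolded protein response that serves folding in the endoplasmic reticulum was divided, with 6 of 21 lower and 3 higher. CALR (calreticulin) fell from 855 to 466 FPKM and HSP90B1 from 229 to 146 FPKM, HSPA5 (BiP) stood at 378 and 437 FPKM, and the sensor ERN1 rose from 0.79 to 3.40 FPKM.

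**Figure D3:**
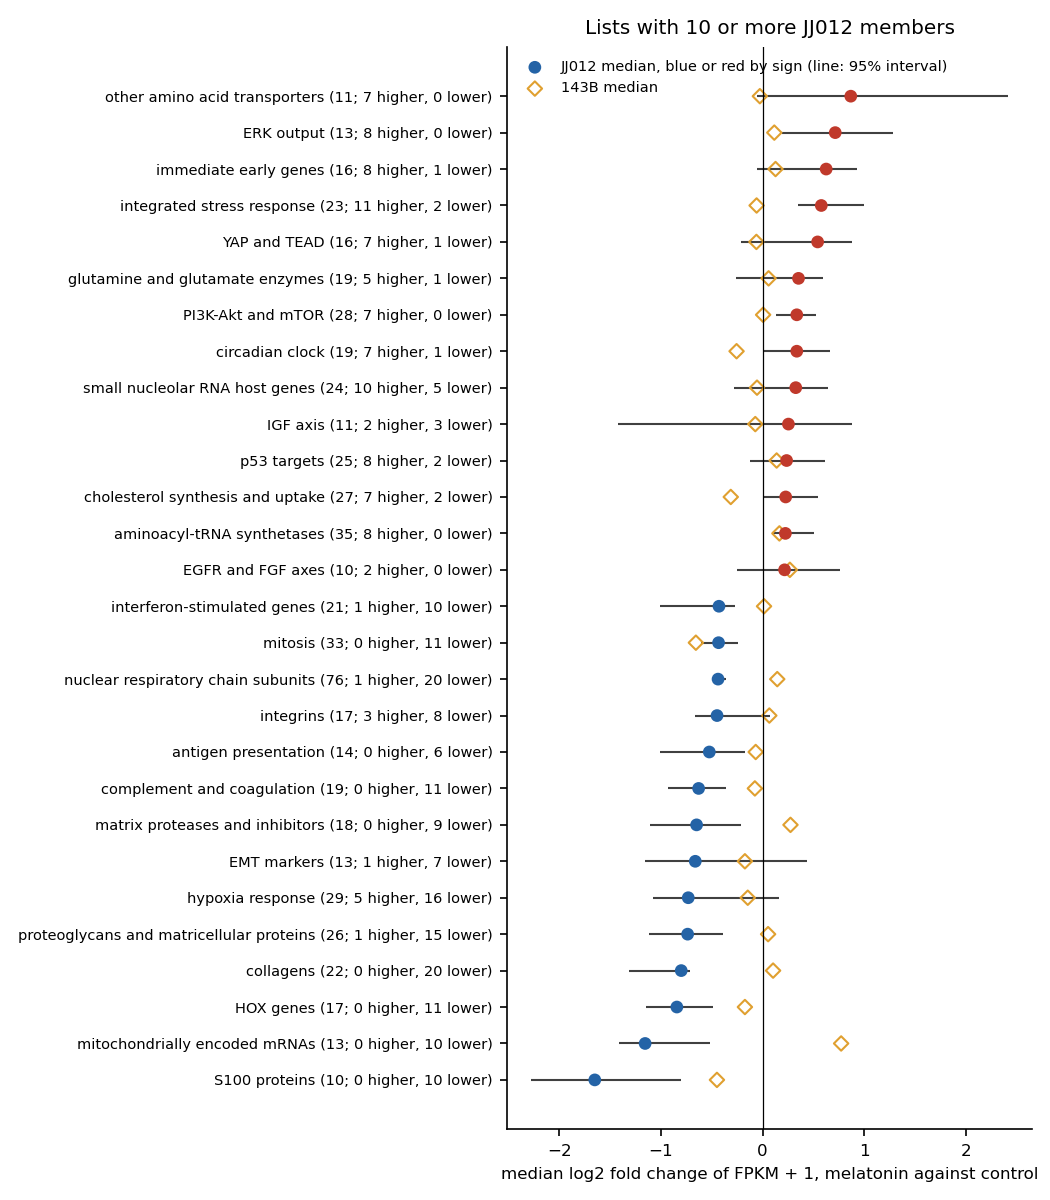
Median log2 fold change (circles, with the 95% interval from order statistics as a line) of the 14 highest and 14 lowest of the 61 lists with at least 10 JJ012 members, and the 143B median of the same list as open diamonds. The intervals are taken over genes of the same pair of libraries and do not cover the spread between cultures. The labels give the number of JJ012 members and how many were higher and lower. S100 proteins lie lowest at -1.65 and the further amino acid transporters highest at 0.87, and for the mitochondrially encoded mRNAs the 143B diamond is on the other side of 0.

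Glutamine transporters were divided. SLC38A5, a sodium-coupled transporter of glutamine and small neutral amino acids, fell from 10.8 FPKM (835 counts) to 2.21 FPKM (143 counts), a 4.90-fold fall in CPM with an interval of -2.56 to -2.04 on the log2 scale. SLC38A3 fell from 1.38 to 0.08 FPKM (105 to 5 counts). SLC38A2, the most abundant member of the list per length, rose from 73.6 to 115 FPKM, the lysosomal sensor SLC38A9 from 1.86 to 3.74 FPKM, and SLC7A5 (LAT1) from 9.22 to 19.8 FPKM. SLC1A5 stood at 44.5 and 61.3 FPKM, with a log2 fold change of 0.45, and SLC38A1 had 3 counts in both libraries. The summed level of the list was 148 FPKM in the control and 210 FPKM with melatonin. In 143B, none of 7 passed the threshold, and SLC38A5 had a log2 fold change of -0.49.

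Of 19 glutamine and glutamate enzymes, 5 were higher (26.3%, beside 19.6% over all genes) and 1 lower. The aminotransferase GOT1 rose from 14.5 to 32.7 FPKM, PPAT, the first committed enzyme of purine synthesis, from 4.05 to 10.7 FPKM, and glutamate dehydrogenase GLUD1 from 6.38 to 10.7 FPKM. GPT2 fell from 11.1 to 5.45 FPKM. In purine and pyrimidine synthesis 4 of 21 were higher, with GART at 13.1 and 32.7 FPKM, and 2 lower, and in serine and one-carbon metabolism 3 of 14 were higher and 1 lower, with PSAT1 rising from 5 to 10.3 FPKM and PSPH falling from 6.07 to 3.01 FPKM.

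Redox enzymes held both directions. Peroxiredoxins, which reduce hydrogen peroxide, were lower in PRDX1 (229 to 99.8 FPKM), PRDX2 (69.8 to 20.6 FPKM), PRDX4 (129 to 33.8 FPKM) and PRDX5 (288 to 124 FPKM), while PRDX3 (31.7 and 33.5 FPKM) and PRDX6 (42.3 and 41.8 FPKM) did not pass. The thioredoxin reductase TXNRD1 rose from 35.5 to 79.5 FPKM and glutathione reductase GSR from 20.5 to 36.9 FPKM, so that the glutathione and thioredoxin list had 6 of 21 lower and 5 higher. Among antioxidant enzymes and NRF2 targets, 9 of 22 were lower and 2 higher. SOD1 fell from 71.1 to 34.0 FPKM and SOD3 from 39.8 to 19.8 FPKM, mitochondrial SOD2 rose from 34.4 to 88.6 FPKM, and the NRF2 targets NQO1 and HMOX1 stood at 40.5 and 23.9 FPKM, a fall, and at 8.21 and 7.87 FPKM, not past the threshold. Of 15 enzymes that make NADPH, 3 were higher (20.0%, beside 19.6% over all genes) and 2 lower.

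Output genes of ERK signalling were higher, with 8 of 13 higher and 0 lower and a median of 0.71. Most are negative regulators that the pathway induces. DUSP4 rose from 1.09 to 4.76 FPKM, SPRY4 from 1.49 to 5.04 FPKM, SPRED2 from 6.73 to 16.2 FPKM, and the factor FOSL1 from 20.0 to 32.8 FPKM. Immediate early genes had 8 of 16 higher and 1 lower. KLF6 rose from 33.9 to 138 FPKM, JUND from 32.0 to 88.2 FPKM and MYC from 2.86 to 10.2 FPKM, while FOS (1.75 and 1.65 FPKM) and JUN (41.7 and 47.8 FPKM) did not pass. In 143B the ERK list had 0 of 17 higher and 1 lower.

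Of 28 genes of the PI3K-Akt and mTOR pathway, 7 were higher and 0 lower, with a median of 0.34. The factor FOXO3, which Akt restrains, rose from 8.22 to 23.9 FPKM, RICTOR of mTOR complex 2 from 3.83 to 11.3 FPKM, the kinase PDPK1 from 5.35 to 10.9 FPKM and the catalytic subunit PIK3CA from 2.80 to 5.31 FPKM. AKT1 (15.3 and 10.6 FPKM) and AKT2 (7.14 and 6.22 FPKM) did not pass. These genes are long, with a median exonic length of 10744 bases, and after removal of the trend over length described below 3 were higher and 2 lower. Among regulators and targets of YAP and TEAD, 7 of 16 were higher and 1 lower, including the targets CCN1 (1.83 to 6.13 FPKM), CCN2 (1.82 to 3.84 FPKM) and ANKRD1 (4.27 to 9.93 FPKM) and the kinase LATS2 (3.30 to 9.92 FPKM), and the receptor AXL fell from 19.9 to 9.95 FPKM.

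In the TGF-beta and BMP list, 5 of 22 were higher and 5 lower (22.7% each), near the 19.6% and 18.6% over all genes. Ligand TGFB2 rose from 0.65 to 2.83 FPKM and receptor TGFBR3 from 3.14 to 8.49 FPKM, while the response gene ID3 (30.1 to 12.8 FPKM) fell. TGFB1 stood at 123.02 and 116 FPKM. Of 17 Wnt genes, 4 were higher (23.5%, beside 19.6% over all genes) and 2 lower. The co-receptor LRP6 stood at 2.58 and 8.08 FPKM and the ligand WNT5B at 19.9 and 11.1 FPKM. Of 9 Notch genes 3 were higher, among them NOTCH2 (18.3 to 46.1 FPKM). In the insulin-like growth factor axis the receptor IGF1R rose from 2.83 to 6.46 FPKM, and the binding proteins IGFBP3 (6.02 to 1.00 FPKM), IGFBP5 (1.49 to 0.08 FPKM) and IGFBP6 (68.4 to 24.9 FPKM) fell. Of 10 EGFR and FGF genes 2 were higher (20.0%, beside 19.6% over all genes), NRG1 (0.44 to 1.73 FPKM) and FGF5 (2.45 to 4.83 FPKM). None of 5 Hedgehog and PTHrP genes passed.

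Genes of cell death and survival moved on both sides. Besides HRK, the BH3-only gene BBC3 (PUMA) rose from 8.18 to 16.6 FPKM and the death receptor TNFRSF10B from 9.79 to 22.0 FPKM, whereas BMF (6.69 to 2.31 FPKM), BID (14.3 to 7.67 FPKM) and PMAIP1 (18.6 to 10.9 FPKM) fell. BAX stood at 14.8 and 10.2 FPKM and BCL2L11 (BIM) at 5.44 and 7.32 FPKM. The survival genes MCL1 (53.2 to 98.7 FPKM), BCL2L1 (14.5 to 28.4 FPKM), XIAP (8.17 to 21.0 FPKM) and BCL2 (0.13 to 1.12 FPKM) rose, and BIRC5 (survivin) fell from 3.9 to 0.91 FPKM. CASP8 and CASP9 did not pass. Of 25 p53 targets, 8 were higher and 2 lower. GADD45A rose from 61.4 to 136 FPKM and PLK3 from 3.00 to 10.9 FPKM, while CDKN1A (p21, 55.1 and 50.4 FPKM) and MDM2 (9.30 and 9.57 FPKM) did not pass.

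Of 33 mitosis genes, 11 were lower and 0 higher, with a median of -0.43. CCNB1 (cyclin B1) fell from 18.4 to 8.43 FPKM, PTTG1 (securin) from 21.7 to 9.88 FPKM and AURKA from 6.79 to 3.36 FPKM, while MKI67 (1.73 and 1.82 FPKM) and TOP2A (10.3 and 9.67 FPKM) did not pass. In 143B, 19 of 32 were lower and 0 higher, and MKI67 (-0.96) and TOP2A (-1.19) were among them. DNA replication genes had 5 of 31 lower (16.1%, beside 18.6% over all genes) and 0 higher, and their median of -0.16 became 0.03 under TPM. Among G1 regulators CDKN2C (p18) fell from 11.2 to 2.69 FPKM and CCND3 from 7.96 to 3.25 FPKM, CDK6 rose from 2.40 to 6.34 FPKM, and CCND1 stood at 14.1 and 20.6 FPKM. In DNA repair the large kinases PRKDC (7.44 to 19.03 FPKM), ATM (2.26 to 5.61 FPKM) and ATR (1.38 to 3.73 FPKM) rose, and ERCC1 fell from 13.4 to 6.64 FPKM.

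Interferon-stimulated genes, which JJ012 expressed at high levels in the control, were lower. Of 21 genes, 10 were lower and 1 higher. IFI6 fell from 2285 to 839 FPKM (41111 to 12676 counts), BST2 (tetherin) from 873 to 330 FPKM, the ubiquitin-like ISG15 from 185 to 76.0 FPKM, IFI27 from 90.6 to 21.2 FPKM and IFIT1 from 25.1 to 8.2 FPKM. The factor IRF7 rose from 0.34 to 2.51 FPKM. The summed level went from 3669 to 1421 FPKM, and in 143B the list summed to 67.6 and 71.0 FPKM. Of 14 antigen presentation genes, 6 were lower and 0 higher, with HLA-B falling from 54.5 to 26.4 FPKM and B2M from 1009 to 649 FPKM. HLA genes resemble each other closely in sequence, so the split of counts among them is uncertain. Of 19 complement and coagulation genes, 11 were lower, led by C1R (41.2 to 12.4 FPKM). In the list of chemokines, cytokines and NF-kB genes, 2 of 14 were higher (14.3%) and 4 lower (28.6%), beside 19.6% and 18.6% over all genes. The cytokines CSF1 (49.0 to 181 FPKM) and LIF (6.94 to 22.4 FPKM) rose, and CXCL8 fell from 1.87 to 0.77 FPKM.

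Of 27 genes of cholesterol synthesis and uptake, 7 were higher (25.9%, beside 19.6% over all genes), 2 were lower and 18 did not pass. Rises included those of CYP51A1 (0.94 to 2.94 FPKM), SQLE (18.8 to 37.2 FPKM), STARD4 (17.0 to 33.6 FPKM) and MSMO1 (29.7 to 54.2 FPKM). PMVK and FDPS fell. The lysosomal cholesterol exporter NPC1 rose from 28.3 to 122 FPKM, the 1 rise among 24 lysosomal genes, of which 5 were lower (20.8%, beside 18.6% over all genes). The desaturase SCD, already abundant, rose from 370 to 749 FPKM, and the fatty acid transporter CD36 fell from 12.5 to 4.54 FPKM.

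Of the genes that handle melatonin itself, 4 of 17 reached 1 FPKM. MTNR1A had 2 and 1 counts and MTNR1B had 2 and 12 counts, while NQO2 stood at 21.1 and 21.2 FPKM. SULT1A2, a sulfotransferase that has a near-identical copy, fell from 1.83 to 0.64 FPKM. Of the aryl hydrocarbon receptor pathway, which indoles can engage, 4 of 10 genes reached 1 FPKM. Of these, 1 was higher and 1 lower (25.0% each, beside 19.6% and 18.6% over all genes). TIPARP rose from 3.73 to 7.18 FPKM, and NQO1, named above as an NRF2 target, fell (log2 fold change -0.74). AHR was below 1 FPKM, and CYP1A1 stood at 2.06 and 1.70 FPKM. Circadian clock genes, the classical endpoint of pineal melatonin, had 7 of 19 higher and 1 lower. NR1D2 (REV-ERB beta) rose from 13.9 to 41.9 FPKM, NR1D1 from 20.0 to 36.2 FPKM, PER3 from 6.27 to 16.6 FPKM, PER1 from 18.4 to 29.5 FPKM and CLOCK from 3.97 to 6.78 FPKM, and PER2 (1.29 and 1.60 FPKM) and ARNTL (BMAL1, 1.48 and 1.24 FPKM) did not pass. In 143B, 0 of 19 were higher and 2 lower, NR1D1 (-0.88) and PER3 (-0.59). The difference between the lines was not tested.

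Among genes outside the protein-coding class, 1048 of 4260 were higher (24.6%) and 1081 lower (25.4%). Of 852 genes typed as lincRNA, 109 were higher and 293 lower (34.4%). DNM3OS, the host transcript of a microRNA cluster on the opposite strand of DNM3, fell from 13.4 FPKM (825 counts) to 0.27 FPKM (14 counts), and HOTAIR, transcribed from the HOXC locus, from 8.69 to 1.73 FPKM. MALAT1 rose from 7.71 to 28.3 FPKM, NEAT1 from 177 to 278 FPKM and NORAD from 95.4 to 176 FPKM. Of 24 host genes of small nucleolar RNAs, 10 were higher and 5 lower, with GAS5 at 30.02 and 53.8 FPKM and SNHG12 at 9.88 and 27.2 FPKM. Very short genes stood out by their FPKM but rested on few counts. MIR4659A, which lies inside AGPAT5 on the same strand, was listed at 0 and 25 counts, at least 9.92-fold higher against the floor of 3 counts, while its host gene had 3166 and 16333 counts. Zinc finger genes named ZNF were mostly in the middle of the range, with 75 of 352 higher (21.3%) and 17 lower (4.83%) and a median of 0.21. ZNF770 rose from 7.6 to 23.1 FPKM and ZNF688 fell from 7.88 to 2.43 FPKM.

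The direction of change in JJ012 followed exonic length and abundance across the whole table. Protein-coding genes were divided by length into 10 classes of equal number. In the shortest class (207 to 2064 bases of exon), 6.07% were higher and 41.4% lower, with a median of -0.49. In the longest class (11595 to 70573 bases), 33.2% were higher and 3.73% lower, with a median of 0.36. The share that was higher increased at each step between them. Across the 11534 protein-coding genes, which share the same pair of libraries and are not independent, the Spearman correlation of log2 fold change with exonic length was 0.40, and it was -0.13 in 143B. By abundance, 52.4% of the 124 genes at 200 FPKM or more in either library were lower and 5.65% higher, whereas of the genes between 10 and 50 FPKM 15.6% were lower and 23.5% higher. A technical or biological origin of the trend with length was not tested.

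**Figure D4:**
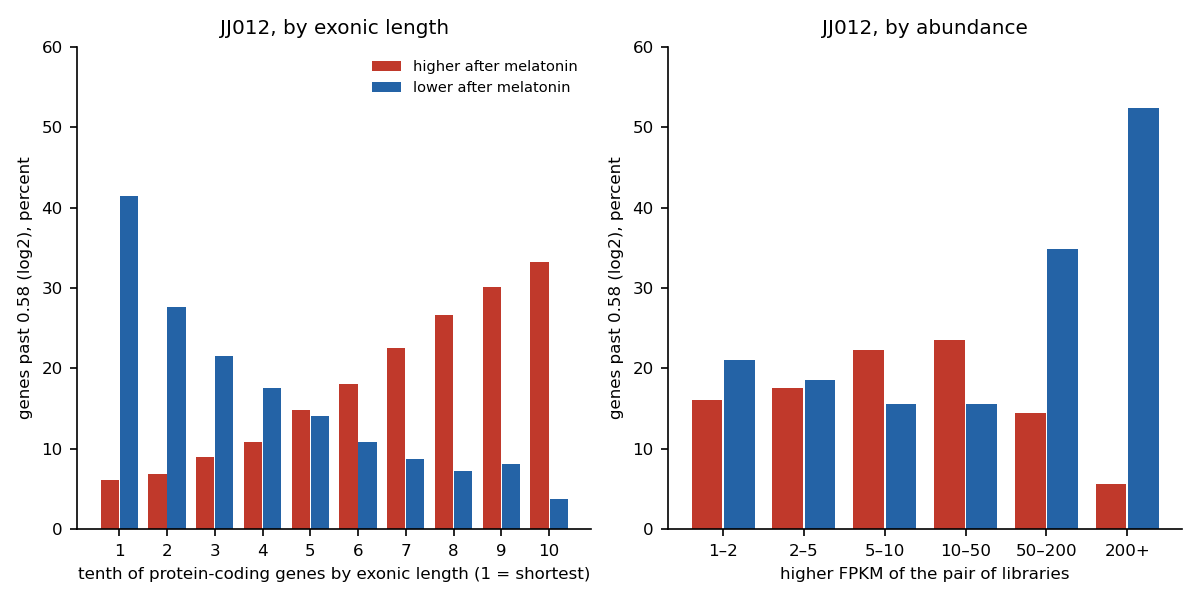
Percent of JJ012 genes past a log2 fold change of 0.58, higher in red and lower in blue, by class of exonic length (protein-coding genes, left) and by the higher FPKM of the pair of libraries (all 15794 genes, right). The share that was lower falls from 41.4% in the shortest class to 3.73% in the longest, and it reaches 52.4% above 200 FPKM.

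When the running median over length was subtracted, some lists kept their counts and others lost calls. Collagens, which are long genes with a median of 9172 bases and fell, had 21 of 22 lower instead of 20. The hypoxia list had 15 lower and 5 higher, glycolysis 12 lower and 4 higher, the integrated stress response 13 higher and 2 lower, ERK output 8 higher and 0 lower, and interferon-stimulated genes 13 lower and 1 higher. S100 proteins (median 1018 bases) went from 10 to 8 lower and nuclear subunits of the respiratory chain from 20 to 14. Proteasome subunits went from 8 to 2 lower while their median hardly moved, from -0.38 to -0.37. Higher calls were lost in PI3K-Akt and mTOR (7 to 3), DNA repair (6 to 2, with the median turning from 0.17 to -0.01), glutamine and glutamate enzymes (5 to 2), integrins (3 to 0), and serine and one-carbon enzymes (3 to 1, with the median turning from 0.20 to -0.10). Rescaling to TPM moved the median gene upwards by 0.26 on the log2 scale, and relative to that shift, an alternative chosen after seeing the data, the collagens had 20 lower, the integrated stress response 13 higher and 2 lower, and the mitochondrially encoded mRNAs 10 lower.

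Some genes were present in 1 library alone. With at least 50 counts in 1 library and at most 3 in the other, 19 genes belonged to the control, 9 of them protein-coding, and 4 to the melatonin library, 1 of them protein-coding. SLAMF9 (5.16 FPKM, 113 counts) and ITIH1 (1.43 FPKM, 125 counts) had 0 counts with melatonin and were at least 31.6-fold and 35.0-fold lower against the floor of 3 counts. The matrix protein dermatopontin (DPT) had 137 and 1 counts, a log2 CPM ratio of -6.85 with an interval of -12.2 to -4.34, and TGFBI, a matrix protein induced by TGF-beta, had 220 and 3 counts, with an interval of -8.23 to -4.38. NMRK2, a nicotinamide riboside kinase, had 3 and 56 counts, with an interval of 2.85 to 6.79. In 143B, TGFBI had 4334 and 6552 counts and the other 4 of these genes had at most 43.

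Set beside JJ012, 143B changed less. Of 14135 genes in 143B, 861 were higher (6.09%) and 940 lower (6.65%). Of 11822 genes that passed the filter in both lines, 137 were higher in both and 158 lower in both, while 137 were higher in JJ012 and lower in 143B and 108 the reverse. Protein-coding genes made up 50 of those higher in both and 82 of those lower in both. They made up 24 of those higher in JJ012 and lower in 143B and 52 of the reverse. Among the 9811 protein-coding genes that passed in both lines, the Spearman correlation of the 2 log2 fold changes was 0.01. It was 0.07 with the length trend removed in each line. Groups with calls on opposite sides in the lines included the mitochondrially encoded mRNAs and the matrix proteases and inhibitors (9 of 18 lower in JJ012, 4 of 23 higher and 1 lower in 143B). Metallothioneins were divided in JJ012 (1 of 6 higher and 1 lower) and mostly higher in 143B (5 of 6). TIMP1 fell by 1.11 in JJ012 and rose by 0.90 in 143B on the log2 scale, and the metal-binding MT2A stood at 311 and 251 FPKM in JJ012 with a log2 fold change of 1.30 in 143B. Each line had 1 library per condition, so these contrasts between lines were not tested.

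**Figure D5:**
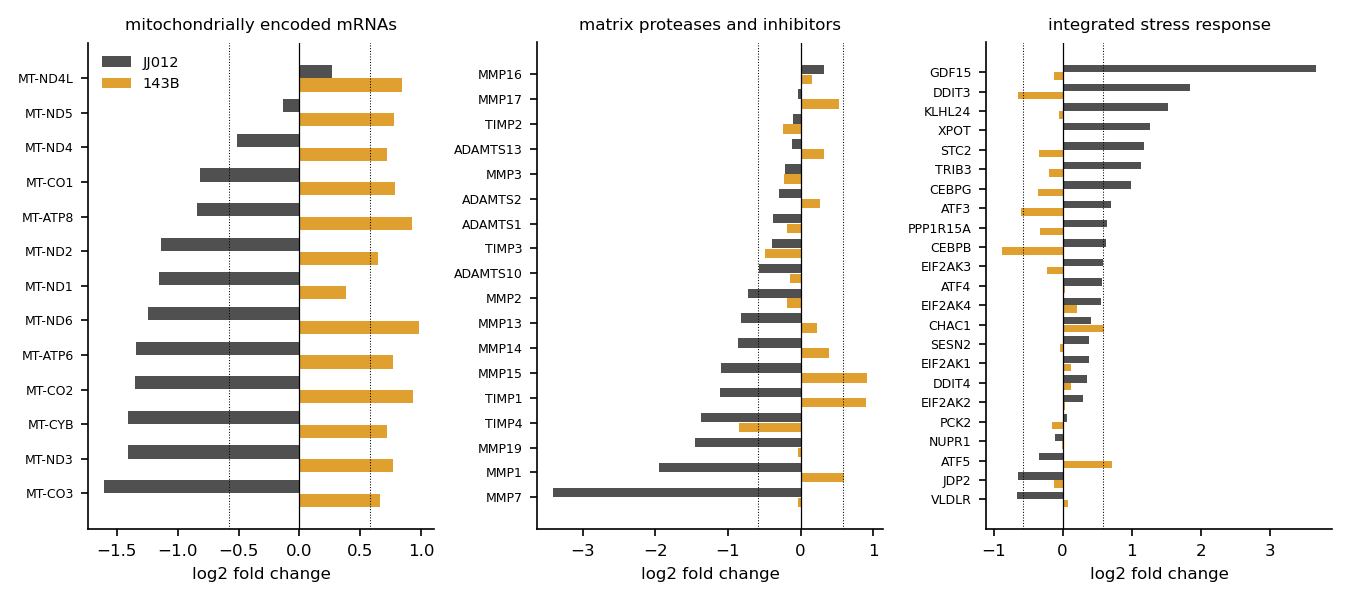
Log2 fold change after melatonin of each JJ012 member in 3 lists, with JJ012 in grey and 143B in orange, and dotted lines at 0.58 either way. MT-CO2 lies at -1.35 in JJ012 and 0.93 in 143B, and GDF15 at 3.68 and -0.12.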

How the data were processed

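Poly(A) RNA of JJ012 and 143B cells was sequenced as paired ends, with 1 library per line and condition. Per the submitters' processing notes, reads were trimmed (cutadapt 1.9.1), aligned to hg38 (HISAT2 2.2.1) and counted per gene (HTSeq 0.6.1). The strand setting and annotation release are not given in the sources used here. The authors deposited raw read counts and FPKM values per gene. The deposited FPKM equalled counts divided by exonic length and library total for 100.0% of 123612 values (tolerance 0.0051). Table columns carrying the suffix T were taken as the melatonin libraries by their match with the sample titles. Counts without a gene symbol were 0.895% (control) and 0.918% (melatonin) of the JJ012 totals.

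Fold changes were log2((melatonin FPKM + 1)/(control FPKM + 1)) for genes with at least 1 FPKM in either JJ012 library, and a gene was called at 0.58. The size of the call threshold has no replicate check. CPM ratios have exact Clopper-Pearson 95% intervals. Intervals of list medians come from order statistics over genes, treat the genes as independent and do not cover the spread between cultures. A running median over 501 genes ordered by exonic length gave the trend with length. Gene types came from GENCODE 29 and promoters from RefSeq. Alternatives were a pseudocount of 0.1 FPKM, no filter or a filter of 5 FPKM, a log2 threshold of 1, TPM, CPM, TMM factors (edgeR 4.0.16), median-of-ratios size factors (DESeq2 1.42.0), totals without mitochondrial genes, removal of the length trend, and protein-coding genes alone. The calculation was tested on simulated data. Python 3.11.15 (numpy 2.4.6, scipy 1.17.1, pandas 2.3.3, matplotlib 3.10.9) and R 4.3.3 were used.

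Named genes were the 15 largest rises and falls among protein-coding genes at 5 FPKM or more, the 10 with the highest control FPKM, in each of 80 lists the defining members and up to 4 others with the largest change, up to 5 that moved oppositely in the lines, and 5 noncoding genes each way. Many further list members, and genes present in 1 library alone, fall outside this rule and were named after their values were seen. The genes and lists were chosen with earlier results of these data known. Some named genes are not reported here.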

Additional observations from a re-analysis of the deposited data

Results flagged for a closer look

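Of the genes whose change in JJ012 passed the threshold, 5 were singled out because their change in 143B passed it in the opposite direction. With 1 library per condition in each line, the difference between the lines was not tested. MT-CO2, a mitochondrially encoded subunit of complex IV, stood at -1.35 on the log2 scale in JJ012, against 0.93 in 143B. GPRC5A, an orphan receptor, had 1.73 in JJ012 (8.16 to 29.4 FPKM) and -0.97 in 143B. The collagenase MMP1 had -1.95 in JJ012, where it was weakly expressed, and 0.60 in 143B, where it stood at 994 and 1504 FPKM. DDIT3 had 1.85 in JJ012 and -0.64 in 143B. CREBRF, a regulator of CREB3 factors, had 1.57 in JJ012 (4.92 to 16.6 FPKM) and -0.84 in 143B.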

How the results depend on the processing

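Without replicates, the calls rest on a fold threshold, and a different culture could move any of them. No paired analysis was possible because each condition had 1 library. No library could be left out for the same reason. Higher genes made up 51.4% of the JJ012 genes past the threshold. This share was 50.1% with no filter, 55.5% with a filter of 5 FPKM, 53.3% at a log2 threshold of 1, 62.3% with TPM, 57.8% with TMM factors, 57.6% with median-of-ratios size factors and 53.3% with the length trend removed, and it was below 50% with CPM (45.7%) and with totals without mitochondrial genes (47.8%). The cause was not tested. The counts of higher and lower genes, 3102 and 2934, became 1861 and 1491 at 5 FPKM, 1241 and 1086 at a log2 threshold of 1, and 2054 and 1853 for protein-coding genes alone. They became 7637 and 4627 with TPM, where the filter of 1 TPM admits more genes. The median of the DNA replication list turned from -0.16 to 0.033 and that of antisense noncoding RNAs from -0.15 to 0.047 with TPM. Over 80 lists, 692 of 797 alternative medians stayed within the interval of the reported median, 103 moved beyond it, and 2 changed sign for a list whose interval lay on 1 side of 0. Counting every list, the median changed sign in 11 with TPM and in 10 with the length trend removed. Relative to the shift of the median gene under TPM, it changed sign in 1 list. Over 391 named genes, 2233 of 3128 alternative values moved by less than the counting error, 895 moved by more, and 0 of those past the threshold changed sign. Depth limits genes near the floor of 3 counts, for which the intervals are wide.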

Other observations

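The calls of several further gene groups were as follows, beside 19.6% higher and 18.6% lower over all genes. Of 16 tubulins, 5 were lower and 4 higher, and TUBA1A, an alpha-tubulin, fell from 102 to 27.0 FPKM. Of 8 troponin and sarcomere genes, 5 were lower and 0 higher. Of 32 RNA polymerase subunits, 10 were higher and 5 lower. Of 16 genes of DNA methylation and Polycomb, 6 were higher and 0 lower (2 and 0 with the length trend removed), and the methyltransferase DNMT3B rose from 2.55 to 5.30 FPKM. Of 25 autophagy genes, 3 were higher and 1 lower. Of 25 ABC transporters, 2 were higher and 5 lower, and the ribosome recycling factor ABCE1 rose from 11.4 to 27.8 FPKM.

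Among 22 replication-dependent histone genes, whose mRNAs largely lack poly(A) tails, 2 were higher and 6 lower. Of 17 cytosolic heat shock proteins, 4 were lower and 0 higher, and the median of -0.16 was 0.11 with TPM. Of 32 SR and hnRNP splicing factors, 6 were lower and 1 higher, with a median of -0.14 that was 0.13 with TPM. Of 9 iron-handling genes, 2 were higher and 1 lower. The light chain of ferritin, FTL, was among the highest genes of the control at 3268 FPKM and stood at 2794 FPKM with melatonin.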
